A study of Homo sapiens with 32 samples.

Results

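Parental LNCaP cells, which carry no MACC construct, were treated with 2.5 µM tamoxifen or with ethanol vehicle for 48 h, and 4 libraries of each treatment were sequenced. These 8 libraries were chosen by their genotype and treatment labels from 32, the other 24 being the same treatments in LNCaP lines that carry a MACC in neutral, repressive or activating form. The construct fuses the DNA binding domain of the androgen receptor with ERT2, a mutant estrogen receptor domain that responds to tamoxifen, with 3X FLAG alone (neutral), KRAB (repressive) or VP64 (activating). The question put to the parental cells is which transcripts respond to the drug when no construct can answer it, and how large a response the 8 libraries could have shown. All 8 parental libraries came from cells in RPMI-1640 with 10% fetal bovine serum, so that androgens of the serum were present under both treatments, and blasticidin selection is named for the MACC lines only.

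The labels name the compound tamoxifen, but the catalogue number given with it may be that of 4-hydroxytamoxifen, its active metabolite, so which of them the cells received is not certain. Tamoxifen is a selective estrogen receptor modulator that competes with estradiol for the ligand binding domain and changes which cofactors the receptor recruits. It also binds enzymes of late cholesterol synthesis at the so-called antiestrogen binding site, and as a cationic amphiphilic compound it collects in lysosomes. LNCaP is a luminal, androgen-dependent line grown from a prostate cancer metastasis in a lymph node, in which androgen drives KLK3, the gene of prostate-specific antigen. The routes by which the drug could act without a construct were therefore looked at through gene lists for its binding proteins, androgen and estrogen receptor targets, sterol synthesis, lysosomes, stress and the cell cycle.

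The 4 vehicle libraries held 454982 to 669381 counts and the 4 tamoxifen libraries 488291 to 664864, and 17696 of 57773 genes had at least 1 count. The prostate luminal list was seen in part, with 10 of 17 genes passing the expression filter and 5 at 3 counts or fewer in all 8 libraries. KLK3 had 12 to 29 counts per library, HOXB13 and FOXA1 passed the filter, and KRT8 had 311 to 791, while MSMB and DPP4 stayed at 0 and KRT19 and ACPP at 1 count or fewer. All 12 prostate basal genes stayed at 3 counts or fewer in all 8 libraries, among them KRT5 at 0. The kit marks strand, but the strand setting of the counting is not given in the sources used here. Genes found in the annotation used here held 93.8% of the parental counts. Among counts on these genes, 84.6% to 89.1% per library lay on genes with an exon that another gene's exon overlaps on the reverse strand. For this reason the feature on the opposite strand is named beside a number of genes, among them those where it had the higher mean count. Whether strand assignment bears on the counts was not tested.

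Vehicle replicate 1 stood apart from the other libraries. It lay at -35.0 on principal component 1 (33.0% of the variance), against -3.76 to 15.9 for the other 7 libraries. Its median correlation with the other libraries was 0.940, and the medians of the others were 0.963 to 0.970. Over the 1175 tested genes with a mean of at least 50 counts, vehicle replicate 1 was the lowest or the highest of the 8 libraries for 748 (63.7%). On principal component 1, tamoxifen replicates 2 to 4 (5.36 to 15.9) lay above vehicle replicates 2 to 4 (-3.76 to 4.78). Tamoxifen replicate 1, at 0.45, lay within that vehicle range. Changes computed without vehicle replicate 1 are given beside many of the results below. The labels call the libraries biological replicates, so the p-values measure the spread between these cultures.

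**Figure D1:**
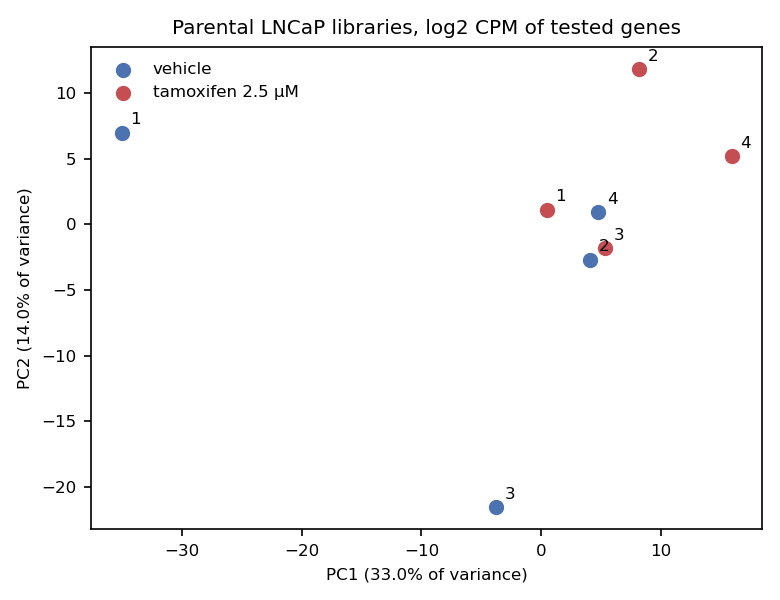
First and second principal components of log2 CPM (counts scaled to a common library size) of the tested genes in the 8 parental libraries, with replicate numbers beside the points. Vehicle replicate 1 sits at -35.0 on the first component and the other 7 libraries lie between -3.76 and 15.9.

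No gene passed the test for a change under tamoxifen in parental LNCaP cells. With edgeR's quasi-likelihood test, 0 of 3985 tested genes (0%) had a Benjamini-Hochberg adjusted p under 0.05, and the smallest adjusted p was 0.336. At an unadjusted p under 0.05 there were 306 genes (7.68%), of which 171 (4.29%) were higher and 135 (3.39%) lower under the drug. DESeq2's Wald test and limma voom also called 0 genes. Other settings did make calls, among them 24 without a filter on low counts and 3 without vehicle replicate 1. There was 1 call without scaling beyond the total count and 1 with voom and library quality weights. A further setting with calls, the replicate number as a block, is given at the end. For 170 genes (4.27%) the 4 tamoxifen values lay entirely above or below the 4 vehicle values. The median log2 fold change over all tested genes was 0.01, and the median absolute change was 0.19 beside a median standard error (SE) of 0.28.

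The size of change that this design could have found was read from each gene's own SE. For the gene of median precision, a change of 1.75-fold would reach an unadjusted p of 0.05 with 80% power. If 5% of the tested genes changed, the Benjamini-Hochberg threshold would stand near an unadjusted p of 0.0025, and that gene would need 2.25-fold. If it were the only gene to change, it would need 3.39-fold. Changes below these sizes were not reliably detectable at this depth, in the median gene.

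The change needed was smaller for genes with more counts. The 2022 tested genes with a mean under 20 counts needed a median of 3.12-fold at the 5% setting, and the 1239 genes with 20 to 100 counts needed 1.84-fold. The 537 genes with 100 to 500 counts needed 1.40-fold, and the 187 genes with 500 or more needed 1.26-fold. A 2-fold change would have been found for 1567 genes at the 5% setting and for 834 genes even if each had changed alone.

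The intervals were read gene by gene. The 95% interval of the change lay within 2-fold in both directions for 2634 genes (66.1%) and within 1.5-fold for 1264 (31.7%). Among the 187 genes with 500 or more counts, 182 had an interval within 2-fold and 177 within 1.5-fold. For 16 tested genes no interval could be formed, since 6 had no count in any parental library and 10 had none in one of the groups. The median SE of the change was 0.28 here and 0.25, 0.26 and 0.28 in the neutral, repressive and activating lines.

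**Figure D2:**
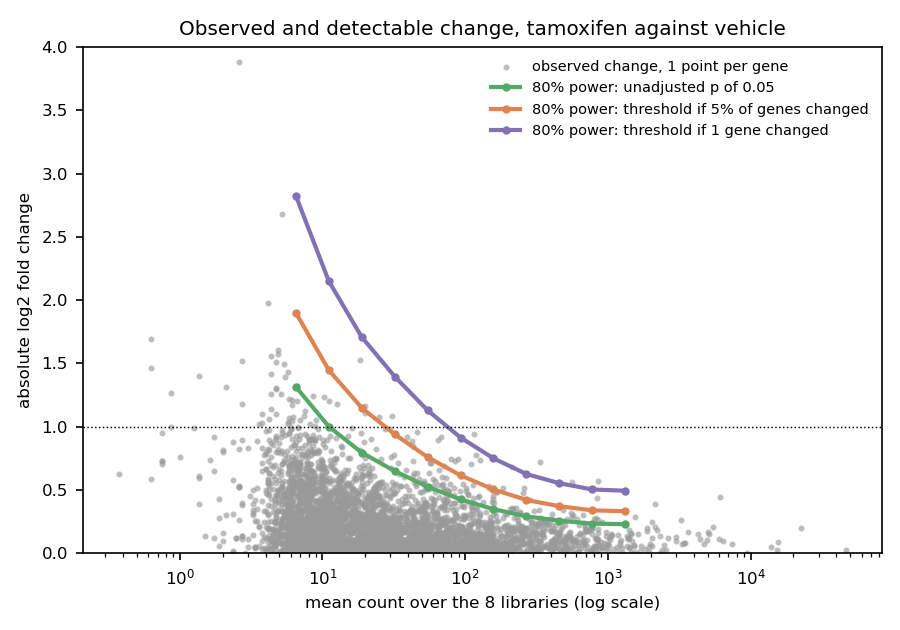
Absolute log2 fold change of tamoxifen against vehicle for each tested gene with an interval (grey) against its mean count on a log scale, with the change needed for 80% power at 3 thresholds (lines join medians of count bins; the dotted line is 2-fold). The needed change at the 5% setting falls from 3.12-fold for genes under 20 counts to 1.26-fold for those with 500 or more.

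The higher and lower genes of smallest p were taken among genes that averaged 50 counts or more; some genes below that average had a smaller p. The 10 higher ones had log2 fold changes of 0.26 to 0.71, and 8 of the 10 had no overlap between treatments. Choosing genes by p in these same libraries favours such separation. Over all 3985 tested genes, 170 (4.27%) had no overlap. All 20 genes of smallest p, counting both directions, overlap an exon on the opposite strand, as do 2937 of all 3985 tested genes. None passed the adjusted threshold, so each is given as a value.

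C5orf45 (ENSG00000161010, chr5:179262133-179289173, minus strand), now named MRNIP for its binding to the MRE11-RAD50-NBS1 DNA repair complex, was the most deeply counted of them. Its counts were 2432, 3003, 2360 and 3407 in the vehicle libraries and 4127, 2959, 4036 and 3830 under tamoxifen. Scaled for library size, every tamoxifen library lay above every vehicle library, at 6335 ± 341 CPM against 5278 ± 237 (SD, n = 4 each). The log2 fold change was 0.26 ± 0.07 (SE), or 1.20-fold with a 95% interval of 1.09 to 1.33 (adjusted p = 0.336, edgeR). Without vehicle replicate 1 the change was 0.28 and passed the test (adjusted p = 0.0486, edgeR). Its exons overlap those of SQSTM1, the autophagy receptor p62, on the other strand, and SQSTM1 itself, with a mean of 83 counts, had a log2 fold change of -0.08 ± 0.14.

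RP11-597D13.9 (ENSG00000248429, chr4:159091904-159124029, plus strand), a long noncoding RNA, had the smallest p of all genes with at least 50 counts. Its counts were 76, 194, 130 and 229 with vehicle and 273, 236, 293 and 286 with tamoxifen. The groups did not overlap after scaling, and vehicle replicate 1 was the lowest of the 8 libraries. The log2 fold change was 0.68 ± 0.16 (adjusted p = 0.336, edgeR), and without vehicle replicate 1 it was 0.50 ± 0.10 (adjusted p = 0.0143, edgeR).

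CIRBP, ELF3 and C7orf49 were also among the higher genes. CIRBP, a cold- and stress-induced RNA binding protein (chr19:1259383-1274879), stood at 1388 ± 27.6 CPM with vehicle and 1663 ± 108 with tamoxifen, without overlap, a log2 fold change of 0.26 ± 0.08. ELF3, an epithelial ETS transcription factor (chr1:201977073-201986311), had 71 to 125 counts with vehicle and 110 to 156 with tamoxifen, a change of 0.44 ± 0.13, also without overlap after scaling. C7orf49, a regulator of DNA end joining now named CYREN (chr7:134777115-134855547), stood at 549 ± 34.2 against 665 ± 12.3 CPM, a change of 0.28 ± 0.09, and TMEM140 on the opposite strand had a mean of 1428.5 counts. Their adjusted p-values from edgeR were 0.425, 0.425 and 0.442.

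The remaining higher genes were CASKIN1, a scaffold protein best known from synapses, the hydrolase-family gene ABHD16B and 3 noncoding RNAs. CASKIN1 (chr16:2227181-2246606) stood at 369 ± 71.9 CPM with vehicle and 518 ± 67.6 with tamoxifen, and its groups overlapped. The log2 change was 0.55 ± 0.17 for ABHD16B, 0.54 ± 0.15 for RP13-890H12.2 and 0.71 ± 0.20 for RP3-508I15.19. RP11-498C9.3, which lies opposite ARHGDIA, had a log2 change of 0.29 ± 0.09, or 0.19 without vehicle replicate 1. Vehicle replicate 1 was the lowest of the 8 libraries for 7 of the 10 higher genes. Without it the changes of the 10 ran from 0.19 to 0.58, each at an unadjusted p under 0.05. The remaining libraries had also served to choose these genes, so this is no independent check.

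On the lower side the 10 genes of smallest p with a mean of at least 50 counts had log2 fold changes between -0.55 and -0.30. Again 8 of the 10 had no overlap, which choosing them by p favours. Vehicle replicate 1 was the highest of the 8 libraries for 7 of them. Without that library the changes lay between -0.53 and -0.26, each at an unadjusted p under 0.05. Here too the remaining libraries had served to choose the genes.

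CCNH, E2F5, SNAPC5 and HAS3 were among the lower genes. CCNH, cyclin H of the CDK-activating kinase and of TFIIH (chr5:86614233-86708747), had 79, 88, 71 and 100 counts with vehicle and 67, 52, 74 and 76 with tamoxifen. After scaling its groups did not overlap, and the log2 fold change was -0.48 ± 0.15 (adjusted p = 0.436, edgeR). E2F5, a pocket-protein-bound repressor of cell cycle genes (chr8:86089389-86129387), had a log2 change of -0.39 ± 0.12, from 327 ± 53.1 to 246 ± 26.7 CPM. SNAPC5, a subunit of the complex that starts small nuclear RNA transcription (chr15:66782473-66790118), had a log2 change of -0.40 ± 0.13. Their opposite features were C8orf59 for E2F5 and MAP2K1 for SNAPC5, with fewer counts. HAS3, a hyaluronan synthase (chr16:69139556-69152622), had a log2 change of -0.35 ± 0.11, with vehicle replicate 1 far above the other vehicle libraries.

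Among the lower genes with at least 50 counts on average, the smallest p belonged to AC007620.3 (chr3:179114749-179116979), a noncoding RNA opposite GNB4. It stood at 1338 ± 100 CPM with vehicle and 1085 ± 27.3 with tamoxifen, and its groups did not overlap. OIP5-AS1, a noncoding RNA also known as cyrano (chr15:41576156-41614590), stood at 219 ± 24.8 and 158 ± 8.86 CPM, a change of -0.46 ± 0.13 with no overlap. The others were AC107081.5 opposite the chaperonin subunit CCT4 (-0.45 ± 0.12), RP11-704M14.1 (-0.55 ± 0.17), AC093157.1 (-0.32 ± 0.10) and RP11-192H23.5 opposite the glycolytic enzyme ALDOC (-0.41 ± 0.13).

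**Figure D3:**
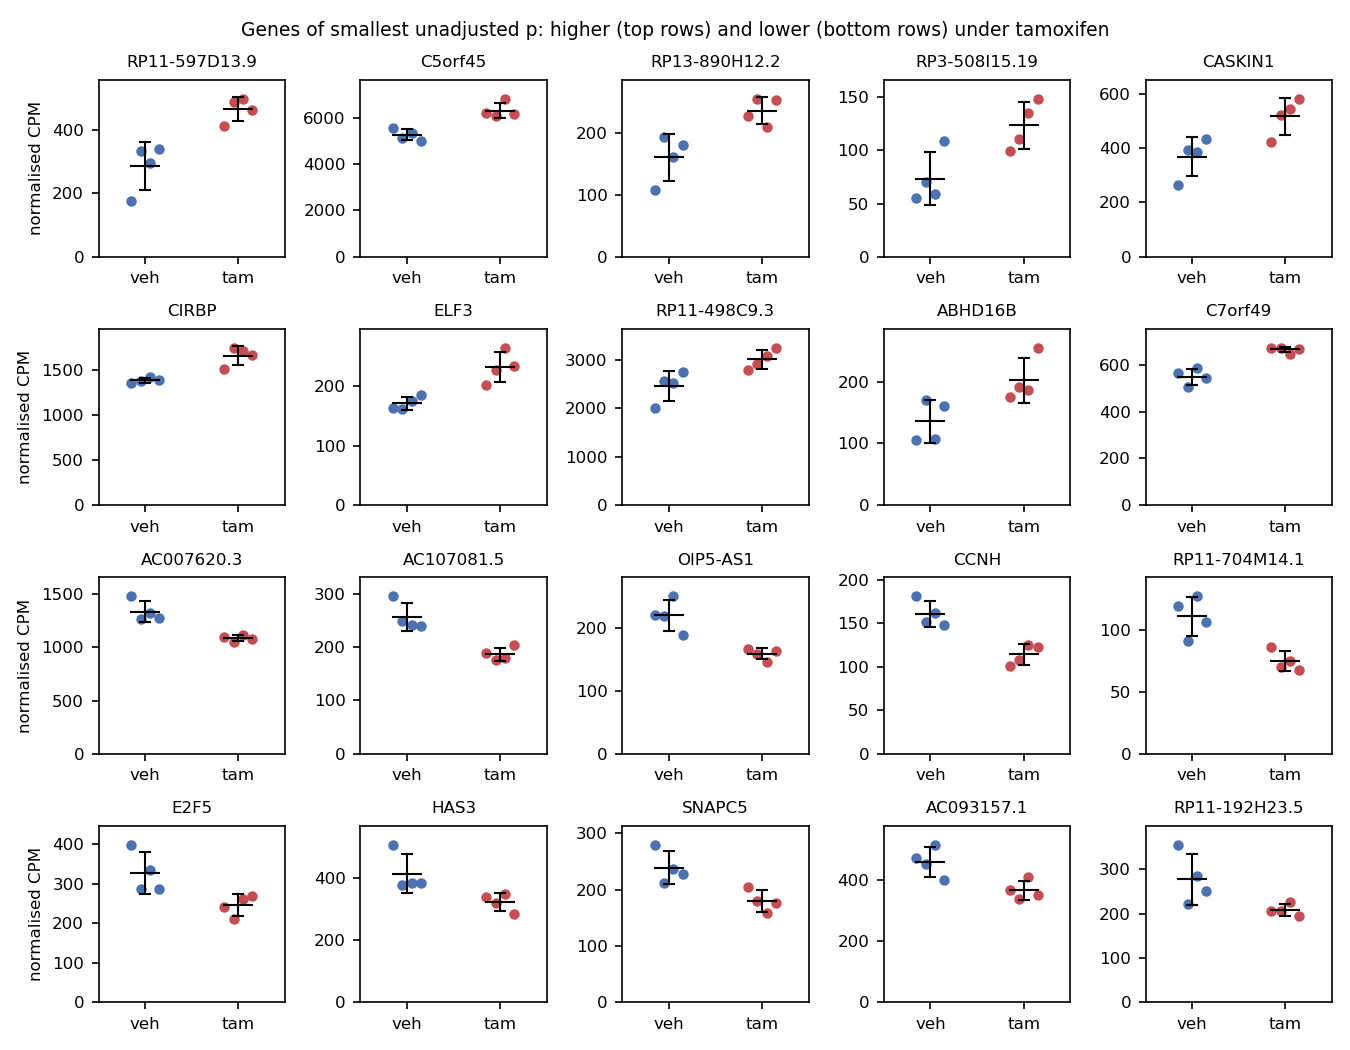
Scaled CPM of the 10 genes with the smallest unadjusted p in each direction among genes with at least 50 counts on average, each point 1 library (n = 4 per treatment), bars the mean ± SD. For 8 of 10 genes in each direction the treatments do not overlap, while no gene passes the adjusted threshold. The genes were chosen by p in these same libraries, which favours treatments that do not overlap.

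Other genes had larger log2 fold changes and were lowest in vehicle replicate 1. Without any filter on low counts, 24 of 17696 genes were called, 22 of them higher, and all 24 were among the 3985 tested genes. ATG9B, a paralogue of the autophagy lipid scramblase ATG9A (chr7:150709297-150721586), had 1, 14, 6 and 14 counts with vehicle and 34, 17, 25 and 36 with tamoxifen. Its groups did not overlap and its log2 fold change was 1.53 ± 0.35 (adjusted p = 0.336, edgeR, filtered table), or 1.22 ± 0.30 without vehicle replicate 1. PRMT6, an arginine methyltransferase (chr1:107599296-107610258), had 24, 78, 53 and 100 counts against 105, 93, 126 and 138. ZNHIT2 (chr11:64883875-64885173) had 8, 31, 27 and 52 against 64, 44, 59 and 82. Vehicle replicate 1 was the lowest library for all 3, and without it the log2 change was 0.52 instead of 0.75 for PRMT6 and 0.69 instead of 0.96 for ZNHIT2.

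FTX, a noncoding RNA of the X-inactivation centre (chrX:73160270-73513409), lay lower under tamoxifen, with a smaller p than any of the lower genes above. It had 17, 27, 30 and 33 counts with vehicle and 23, 7, 9 and 14 with tamoxifen, a log2 fold change of -1.16 ± 0.29 (adjusted p = 0.336, edgeR). Scaled values did not overlap. RAB11FIP1P1 on the opposite strand had a mean of 53.3 counts, more than FTX itself. Without vehicle replicate 1 the change was -1.26 and passed the test (adjusted p = 0.0486, edgeR).

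The gene lists, 352 distinct genes in all, held 83 genes that passed the filter, none of which was called. At an unadjusted p under 0.05 there were 2 higher and 3 lower list genes, 5 of 83 beside the 306 of 3985 over all genes, and the median log2 fold change was 0.04 beside 0.01. The interval lay within 2-fold for 56 of the 83. Of 53 tested features that lie opposite list genes, 3 were higher and 8 lower at that level, with a median of -0.08. In these bulk libraries fewer cells of a kind and less RNA per cell cannot be told apart.

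Few counts fell on the estrogen receptor genes, and whether this reflects few transcripts was not tested. ESR1, the gene of estrogen receptor alpha, had 1, 0, 0 and 0 counts in the vehicle libraries and 0, 0, 0 and 2 in the tamoxifen libraries, and GPER1, a membrane estrogen receptor, had at most 2. Both groups are at or under a floor of 3 counts, and no fold is given. NCOR1, a corepressor that binds tamoxifen-occupied receptor, had a log2 change of -0.15 ± 0.22, and TTC19 on the opposite strand had a mean of 34.1 counts against its 27.5. ZNF10, from which KRAB domains are commonly taken, had no count in any parental library.

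No androgen receptor target passed the test. Of 31 listed genes 13 were tested, with a median log2 fold change of 0.07, 8 of 13 above 0 and 1 at an unadjusted p under 0.05. KLK3 (chr19:51358171-51364020) had 17, 21, 12 and 29 counts with vehicle and 24, 26, 20 and 20 with tamoxifen. The treatments overlapped, and the change was 1.05-fold with a 95% interval of 0.732 to 1.49. FKBP5, a glucocorticoid- and androgen-induced chaperone partner of HSP90, had 5, 6, 6 and 5 counts against 8, 5, 4 and 6, a log2 change of -0.09 ± 0.45.

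The list's extremes were low in counts. SORD, sorbitol dehydrogenase, had 4 to 9 counts with vehicle and 11 to 16 with tamoxifen, a log2 change of 0.72 ± 0.34 (unadjusted p = 0.0429 and adjusted p = 0.641, edgeR). The feature opposite SORD, RP11-109D20.2, had a mean of 2227 counts against 9.9 for SORD, and a log2 change of -0.18 ± 0.07. SLC45A3, also called prostein, stood at 0.60 ± 0.32 and the phosphatase PPAP2A, opposite the deeply counted SKIV2L2, at -0.27 ± 0.19. Without vehicle replicate 1, the lowest library for SORD, SORD stood at 0.59 (unadjusted p = 0.107, edgeR). SLC45A3 then stood at 0.39 and PPAP2A at -0.18. TMPRSS2, a serine protease, had 1 to 8 counts per library and did not pass the filter.

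Estrogen receptor targets could hardly be read. Of 16 listed genes 10 stayed at 3 counts or fewer in all 8 libraries, 6 of them at 0, and 2 were tested. STC2, stanniocalcin 2, had 10, 13, 8 and 12 counts with vehicle and 5, 7, 5 and 10 with tamoxifen. Its scaled values did not overlap, with a change of -0.80 ± 0.37 (unadjusted p = 0.0347 and adjusted p = 0.641, edgeR). CCND1, cyclin D1, had a log2 change of 0.20 ± 0.21, and ORAOV1 on the opposite strand one of 0.29 ± 0.13.

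Sterol synthesis, the pathway that the antiestrogen binding site touches, could hardly be read. Of 25 listed genes 3 were tested, and 13 stayed at 3 counts or fewer in all 8 libraries. Features on the opposite strand are given beside them, and whether these follow the sterol genes was not tested. HMGCS1, which makes the substrate of the rate-limiting reductase, had at most 1 count, and so had INSIG1. CTD-2636A23.2, the feature opposite HMGCS1 (chr5:43287703-43290941), had 358, 400, 329 and 476 counts with vehicle and 437, 314, 388 and 370 with tamoxifen. After scaling the groups did not overlap, at 739 ± 59.6 against 640 ± 28.7 CPM, a log2 change of -0.20 ± 0.09 (unadjusted p = 0.0259 and adjusted p = 0.635, edgeR). ACAT2, the cytosolic thiolase at the entry of the pathway, had a log2 change of -0.23 ± 0.09, with TCP1 on the opposite strand, and RP5-821D11.7, opposite the master regulator SREBF2, one of -0.28 ± 0.13.

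Of the 3 tested sterol genes 1 lay below 0, and of 8 tested opposite features 6 did, with a median of -0.14 for the latter. Over all lists, 19 of 53 tested opposite features lay above 0, with a median of -0.08. Vehicle replicate 1 was the highest of the 8 libraries for CTD-2636A23.2 and ACAT2. Without it they stood at -0.16 and -0.17. The mevalonate kinase gene MVK stood at 0.09 ± 0.40, or -0.16 without vehicle replicate 1.

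Lysosomal and stress genes were likewise uncalled. The 6 tested lysosome genes had changes from -0.33 for the protease CTSB to 0.49 for CTSA, with a median of 0.04. CTSB stood at -0.22 without vehicle replicate 1, and RP3-337O18.9 opposite CTSA had a mean of 28.9 counts against its 11.5. AC068580.6, opposite the lysosomal protease gene CTSD, had 32, 58, 33 and 70 counts with vehicle and 95, 52, 47 and 91 with tamoxifen, a change of 0.43 ± 0.19 with overlapping groups (unadjusted p = 0.0366, edgeR). Among 5 tested genes of endoplasmic reticulum stress the median was 0.18, with the chaperone HSPA5 at 0.30 ± 0.32 and the death-promoting factor DDIT3, opposite MARS with its higher count, at 0.31 ± 0.37. FTH1, ferritin heavy chain, was the only tested oxidative stress gene, with a log2 change of 0.26 ± 0.33 (0.12 without vehicle replicate 1), while HMOX1 had at most 1 count.

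The p53 and drug metabolism lists gave little. CDKN1A, the p53-induced cell cycle inhibitor p21, had 1 to 4 counts per library and was not tested, and GDF15, FAS and XPC had log2 changes of -0.13 ± 0.39, 0.15 ± 0.50 and 0.14 ± 0.49. GDF15 stood at -0.24 without vehicle replicate 1, and RP11-434D12.1 opposite XPC had a mean of 103 counts against 5.25. None of 20 drug metabolism genes passed the filter, and 12 had no count in any parental library, among them CYP1A1, the aryl hydrocarbon receptor target.

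No cell cycle gene passed the test. Most could not be read. Of 42 S phase genes 5 were tested, and 31 stayed at 3 counts or fewer in all 8 libraries. Of 54 G2/M genes 8 were tested, and 35 stayed at 3 counts or fewer. The 5 tested S phase genes had a median of -0.23, which was 0.01 without vehicle replicate 1, and the 8 tested G2/M genes a median of 0.04. MKI67, the proliferation marker Ki-67, had 9, 7, 6 and 8 counts with vehicle and 10, 10, 4 and 8 with tamoxifen. The treatments overlapped, and the 95% interval of its change ran from 0.544-fold to 1.71-fold. The flap endonuclease gene FEN1 had a log2 change of -0.31 ± 0.22, or -0.18 without vehicle replicate 1, and the condensin subunit SMC4 one of 0.58 ± 0.37, with 10.0 counts on average beside 710 for TRIM59 on the opposite strand.

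Of 8 tested housekeeping genes 7 had intervals within 2-fold, with GAPDH at 0.11 ± 0.20 and ACTB at 0.26 ± 0.19. RP5-940J5.9 opposite GAPDH had a mean of 15685 counts against 55.4. HSP90AB1, the constitutive HSP90 that chaperones steroid receptors (chr6:44213903-44221625), had 39, 57, 23 and 36 counts with vehicle and 26, 22, 27 and 25 with tamoxifen. Its scaled values did not overlap, at 73.1 ± 23.9 against 42.7 ± 3.37 CPM, a change of -0.78 ± 0.23 (unadjusted p = 0.00246 and adjusted p = 0.427, edgeR). All 13 protein-coding genes of the mitochondrial genome were tested, with a median of -0.19 and none at an unadjusted p under 0.05, and their summed level ran from 8589 to 15128 CPM with vehicle and from 11093 to 12534 with tamoxifen. MT-ND6, highest in vehicle replicate 1, stood at 0.11 ± 0.17, and without that library at 0.28 ± 0.07 (unadjusted p = 0.000503 and adjusted p = 0.226, edgeR).

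No lineage marker passed the test. The 10 tested luminal genes had a median of 0.07, with KRT8 at 0.22 ± 0.15 (0.07 without vehicle replicate 1) and its partner keratin KRT18, whose exons overlap those of KRT8 on the other strand, at -0.22 ± 0.29. Single genes stood for the neuroendocrine list (NCAM1, -0.58 ± 0.45) and for the blood and endothelial list (CD68, 0.33 ± 0.63, or 0.997 without vehicle replicate 1). Of the mesenchymal list FN1 stood at 0.07 ± 0.24 and ZEB1 at 0.57 ± 0.43. Summed basal markers ran from 0 to 10.3 CPM with vehicle and from 0 to 6.46 with tamoxifen.

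**Figure D4:**
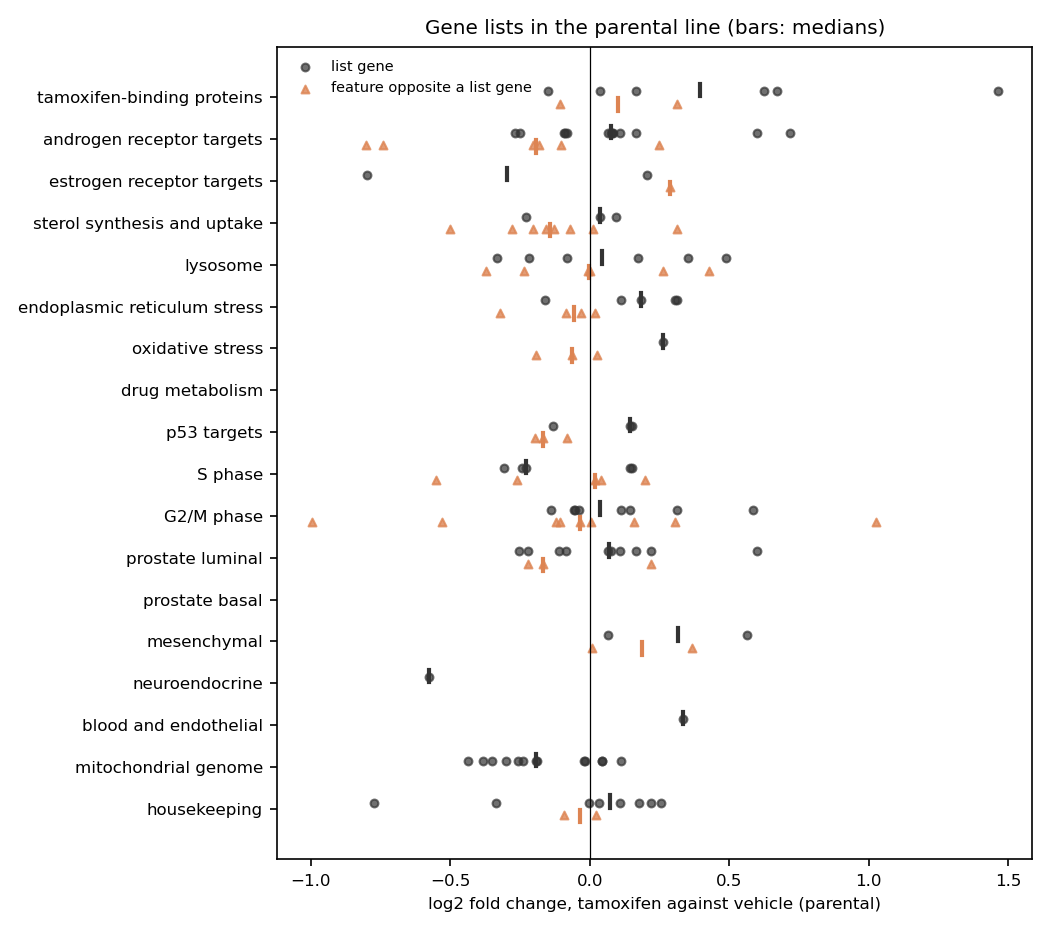
Log2 fold change of tamoxifen against vehicle in parental cells for each tested gene of 18 lists (grey circles) and for tested features on the opposite strand (orange triangles), with vertical bars at the medians. Over all lists the median is 0.04 for list genes and -0.08 for opposite features, and no gene is called.

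The same drug was compared with its effect in the 3 construct lines, each with its own vehicle libraries, to see which changes there were absent from parental cells. With the same filter and test, 188 genes (4.72%) were called in the neutral line, 709 (17.8%) in the repressive and 1786 (44.8%) in the activating line. The difference between the parental response and that of the line, tested as an interaction over 16 libraries, was called for 59 genes (1.48%) against the neutral, 270 (6.78%) against the repressive and 1285 (32.2%) against the activating line.

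Of the genes called in a construct line, this difference was itself called for 52 of 188 in the neutral, 250 of 709 in the repressive and 1222 of 1786 in the activating line. The parental interval alone leaves out the error of the other line's estimate, which was chosen for being called, and so takes in more genes. The 95% parental interval excluded the estimate of the other line for 157 of 188 genes (83.5%) called in the neutral line, 562 of 709 (79.3%) in the repressive and 1586 of 1774 with an interval (1786 called) in the activating line. Some genes changed by at least the size that the parental libraries could have found at an unadjusted p of 0.0025. They numbered 68, 217 and 976 in the 3 lines. The parental interval excluded that change for 65, 209 and 972 of them. At that threshold, a change of that size would have been found in the parental cells with at least 80% power. The threshold for a gene that changed alone is stricter, at an unadjusted p of 1.25e-05, and these counts do not give the power there.

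The 104 genes called higher in the neutral line had a median log2 change of 0.52 there and 0.03 in parental cells, and the 84 called lower had -0.66 and -0.08. For the activating line the medians were 0.96 there and -0.00446 in parental cells for 876 higher genes, and -1.23 and -0.01 for 910 lower ones. Signs matched in parental cells for 61.2% of genes called in the neutral line, beside 57.2% of all tested genes, for 57.4% beside 54.6% in the repressive and for 50.7% beside 50.3% in the activating line.

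KLK3 changed by -2.03 in the repressive line (adjusted p = 3.2e-05, edgeR) and stood at 0.06 in parental cells, a difference of 2.10 (adjusted p = 0.000785, edgeR). FKBP5 changed by 3.69 in the activating and -2.78 in the repressive line beside -0.09 in parental cells, and both differences passed the test. MKI67 changed by -4.55 in the activating line, beside -0.05, again with a called difference. Parental counts were low for both, on average 5.625 for FKBP5 and 7.75 for MKI67. The SE was 0.89 for FKBP5 in the repressive line and 1.43 for MKI67 in the activating line. TBPL1, a TBP-related factor with 321 to 486 counts per parental library, changed by -1.41 and -1.61 in the neutral and repressive lines and stood at -0.08 ± 0.09 in parental cells. MIA3, an endoplasmic reticulum export factor for collagen, changed by 1.07 in the neutral line and stood at -0.12 ± 0.09 in parental cells.

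**Figure D5:**
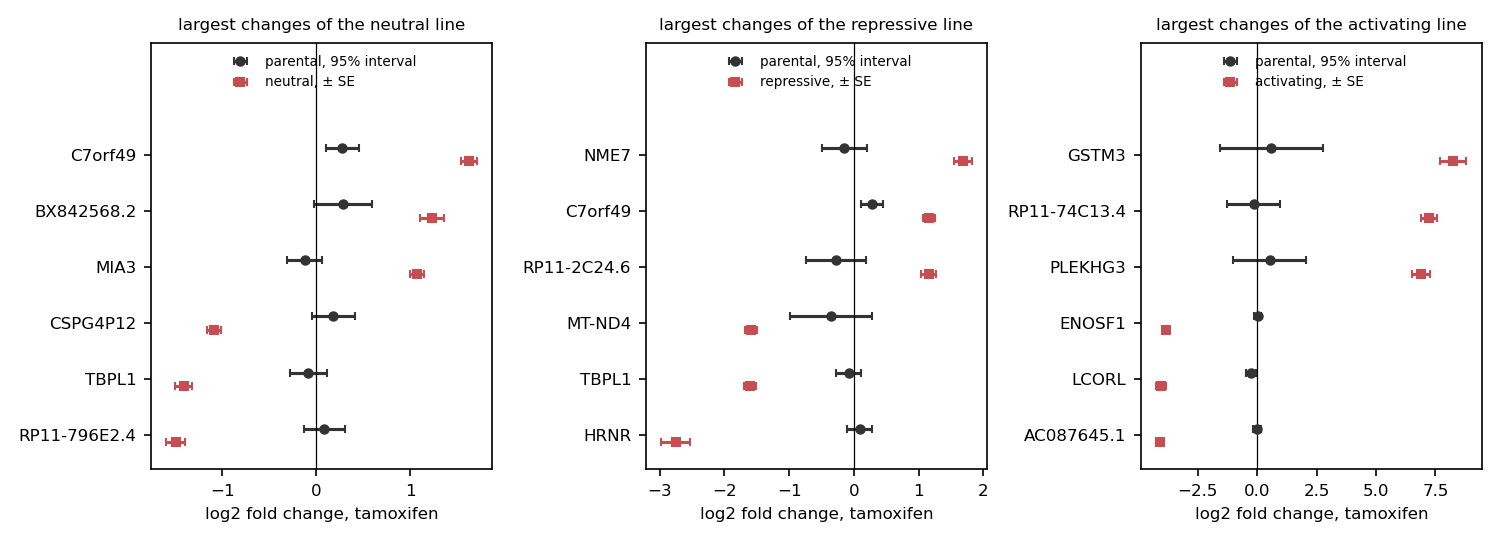
Log2 fold change of tamoxifen in parental cells (black, with 95% interval) and in the neutral, repressive or activating line (red, ± SE) for the 3 strongest increases and the 3 strongest decreases of each construct line. These were taken among called genes with a mean of at least 100 counts in that line and no overlap between treatments. C7orf49 is the only one whose parental interval lies above 0, at 0.28 against 1.62 in the neutral line. The parental interval of LCORL lies below 0, at -0.28 against -4.05 in the activating line.

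Genes called in all 3 construct lines were then looked up in parental cells. There were 24 genes called higher in all 3 lines, and 17 of them lay above 0 in parental cells, 4 at an unadjusted p under 0.05. Their median log2 change was 0.05 in parental cells, 0.47 in the neutral, 0.51 in the repressive and 0.83 in the activating line. Of 23 genes called lower in all 3 lines, 13 lay below 0 in parental cells, 2 of them at that level, with a median of -0.04 beside -0.56, -0.68 and -0.94. In neither direction was a gene at an unadjusted p under 0.05 with the opposite sign. Of all 3985 tested genes, 2042 lay above 0 in parental cells. At that level 171 (4.29%) of all tested genes were higher and 135 (3.39%) lower.

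C5orf45 and C7orf49 were among the 24. The log2 change of C5orf45 was 0.26 in parental cells, 0.41 in the neutral, 0.61 in the repressive and 0.71 in the activating line, and its parental response differed from that of the repressive and activating lines (adjusted p = 0.00584 and 8.83e-05, edgeR) but was not shown to differ from that of the neutral line (difference -0.17, adjusted p = 0.509, edgeR). SQSTM1, on the other strand of that locus, was called lower in all 3 construct lines, by -0.46, -0.38 and -0.57. C7orf49 changed by 1.62, 1.17 and 0.94 in the 3 lines and stood at 0.28 in parental cells, and all 3 differences passed the test.

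The other parental genes at an unadjusted p under 0.05 among the 24 were AC010336.1 (0.18, opposite LRRC8E) and AC040977.1 (0.17). On the lower side they were a noncoding RNA opposite ADAM7 (-0.74) and NFATC3, a calcium-regulated transcription factor (-0.25). BEST1, which lies opposite the ferritin gene FTH1 and had a mean of 15335 counts, stood at 0.03 ± 0.08 in parental cells and changed by 0.36, 0.52 and 2.66 in the neutral, repressive and activating lines. These names were chosen after their values were seen.

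The neutral line adds the construct without an effector domain. Among the 59 genes whose response differed, 25 were higher and 34 lower in parental cells than in the neutral line. AC007620.3 stood at -0.30 in parental cells and 0.23 in the neutral line (difference -0.56, adjusted p = 0.00241, edgeR). CTD-2636A23.2, opposite HMGCS1, stood at -0.20 and 0.23 (difference -0.46, adjusted p = 0.0236, edgeR), neither change being called on its own.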

How the data were processed

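RNA-seq libraries (Illumina Stranded mRNA Prep) of 8 parental LNCaP cultures were read together with 24 libraries of the MACC lines. The authors quantified reads with salmon 1.9.0 on GRCh37 within a standard workflow, and deposited estimated counts per gene without normalization; the annotation release and strand setting are not given in the sources used here. The submitters' processing notes also name DESeq2 1.28.0.

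Here the estimated counts were rounded, edgeR's filterByExpr, run over all 8 groups, kept 3985 of 57773 genes, and libraries were scaled by TMM. Over the 8 parental libraries, edgeR 4.0.16 (R 4.3.3) gave quasi-likelihood tests with robust dispersions and Benjamini-Hochberg adjustment at 0.05; differences between lines were interactions over 16 libraries. CPM values use TMM-scaled totals. SEs and 95% intervals come from the fitted coefficient's covariance and the moderated degrees of freedom. The detectable change is the SE times the sum of the t quantiles of the threshold and of 80% power, at an unadjusted p of 0.05, at 0.0025 (5% of genes changed) and at 1.25e-05 (1 gene changed). Scripts were tested on simulated counts.

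With 454982 to 669381 counts per parental library, 3 counts correspond to 4.43 to 6.87 CPM, and SEs cover both counting and culture spread. Positions and opposite-strand exons come from GENCODE lifted to GRCh37, which held 96.1% of the genes in the table.

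The members, gene lists and tests were chosen with earlier results of these data known. Named genes were the 10 of smallest p in each direction with a mean of at least 50 counts, a set of marker genes with their opposite features, each list's extremes, the 3 genes that rose and fell most in each MACC line (mean of at least 100 counts, called, no overlap), and up to 5 genes of each alternative that called any. Some genes that this rule names are not reported here. Of 20 alternatives, DESeq2 1.42.0, limma 3.58.1, other filters, other scalings and leaving out each library are described at the end.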

Additional observations from a re-analysis of the deposited data

Results flagged for a closer look

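Single libraries lay far from the other 3 of their treatment group for 11 named genes, by Dixon's test at the 95% level, which marks about 1 in 20 groups by chance. In the vehicle group these were replicate 1 for HAS3 at 508 CPM, LCORL at 735 CPM and TACC3 at 2.29 CPM, replicate 2 for GDF15 at 34.4 CPM, replicate 3 for HSPA5 at 20.4 CPM and NCAM1 at 25.0 CPM, and replicate 4 for the pseudogene BX842568.2 at 95.9 CPM. In the tamoxifen group they were replicate 1 for CD68 at 21.1 CPM, replicate 3 for C5orf45 at 6841 CPM and KRT18 at 15.3 CPM, and replicate 4 for CCNE2 at 48.5 CPM. Genes with at most 3 counts in every parental library were not examined.

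The response to tamoxifen differed between parental cells and another line by edgeR's interaction test for 59 genes with the neutral, 270 with the repressive and 1285 with the activating line. Differences are given as the parental minus the other log2 fold change. Some of the largest rest on few parental counts, on average 1.375 for GSTM3, 2.625 for PLEKHG3 and 4.25 for RP11-74C13.4. Against the neutral line the named genes with positive differences were the noncoding RNA opposite BTG1 (1.56), TBPL1 (1.30) and CSPG4P12 (1.25). Those with negative differences were C7orf49 (-1.36), MIA3 (-1.22), BX842568.2 (-0.97), RP11-2C24.6 (-0.97), AC007620.3 (-0.56) and CTD-2636A23.2 (-0.46).

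Against the repressive line the positive differences were those of HRNR (2.84), FKBP5 (2.68), KLK3 (2.10), TBPL1 (1.53), SLC45A3 (1.49), MT-ND4 (1.24), CSPG4P12 (1.04), the noncoding RNA opposite BTG1 (0.64) and CIRBP (0.35). The negative ones were those of NME7 (-1.83), RP11-2C24.6 (-1.43), HSP90AB1 (-1.16), RP11-704M14.1 (-1.11), C7orf49 (-0.89), RP11-192H23.5 (-0.64), HAS3 (-0.63), MIA3 (-0.59), AC107081.5 (-0.57), ELF3 (-0.53), the feature opposite GAPDH, RP5-940J5.9 (-0.46), C5orf45 (-0.35) and AC087645.1 (-0.34).

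Against the activating line, positive differences were found for NCAM1 (5.62), MKI67 (4.49), BX842568.2 (4.13), AC087645.1 (4.11), ENOSF1 opposite the thymidylate synthase gene TYMS (3.84), LCORL opposite NCAPG (3.76), PRMT6 (2.88), RP11-597D13.9 (2.49), ELF3 (2.41), SLC45A3 (2.27), ATG9B (1.77), FN1 (1.56), MIA3 (1.54), NME7 (1.48), OIP5-AS1 (1.47), SMC4 (1.38), GAPDH (0.86), CASKIN1 (0.75), HRNR (0.70) and AC007620.3 (0.69). Negative ones were found for GSTM3 opposite RP4-735C1.4 (-7.65), RP11-74C13.4 (-7.38), PLEKHG3 opposite SPTB (-6.38), FKBP5 (-3.78), KRT8 (-3.06), FEN1 (-2.74), FTH1 (-2.01), KRT18 (-1.79), the noncoding RNA opposite BTG1 (-1.73), NCOR1 (-1.42), CTD-2636A23.2 (-1.42), ACTB (-0.91), SNAPC5 (-0.83), E2F5 (-0.75), MT-ND6 (-0.71), C7orf49 (-0.66), RP11-192H23.5 (-0.64), CIRBP (-0.52), AC093157.1 (-0.50), C5orf45 (-0.46), TBPL1 (-0.37) and ACAT2 (-0.33).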

How the results depend on the processing

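Beside 0 genes by the main test, 1 gene was called without scaling beyond the total count and 1 with limma voom and library quality weights (an alternative added after seeing the data), in both cases C5orf45, and 24 were called without a filter. Genes at an unadjusted p under 0.05 numbered 167 with DESeq2 and 813 without a filter. Among the 902 genes without an opposite-strand overlap, which are fewer by construction, 29 reached that level, 60 could have shown 2-fold alone, 470 had an interval within 2-fold, and 11, 46 and 237 differed from the neutral, repressive and activating lines. Differences from the neutral line numbered 32 without scaling, those from the repressive line 165 without a filter, and those from the activating line 807 with at least 10 counts in every library. Leaving out single libraries gave 0 to 3 calls, the 3 without vehicle replicate 1, and 193 (without tamoxifen replicate 4) to 382 genes at an unadjusted p under 0.05. It gave 641 to 1059 genes for 2-fold alone, 2271 to 2695 intervals within 2-fold, and 34 (without parental tamoxifen replicate 4) to 70, 187 to 273 and 1159 to 1272 differences from the 3 lines. The causes were not tested.

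The replicate numbers were not taken as a pairing. Deviations from the group means correlated at 0.18, -0.03, 0.04 and 0.18 for replicates 1 to 4, and vehicle replicate 2 correlated best with tamoxifen replicate 4. With the number as a replicate block, 32 genes were called, 31 of them higher, and 490 had an unadjusted p under 0.05; 19 of the 32 were among the 24 called without a filter. Those of smallest p were U47924.31 (0.59), DSE (0.60), RP11-597D13.9, STARD7-AS1 and CASKIN1. Without vehicle replicate 1 and without the block, U47924.31 stood at 0.35 and DSE at 0.37 (unadjusted p = 0.164 and 0.107, edgeR), and vehicle replicate 1 was the lowest library for all 8 genes named from these alternatives.

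Of 80 named genes, none had a call to lose, and 27 values over all settings passed the threshold. Signs turned in uncalled values. With quality weights these were MVK (-0.0177), MKI67 (0.0180) and AC087645.1 (-0.0151), the last also with a filter over the parental groups (-0.00298) and with all 32 libraries (-0.00751). Over single libraries left out, the log2 changes ran from -0.65 to 0.0667 for TACC3, -0.0821 to 0.32 for FAS, -0.26 to 0.0457 for FKBP5, -0.16 to 0.31 for MVK, -0.0156 to 0.27 for GAPDH, -0.0486 to 0.20 for FN1, -0.50 to 0.997 for CD68 and -0.38 to 0.42 for GDF15. They ran from -0.00468 to 0.0472 for ENOSF1, -0.0811 to 0.97 for GSTM3, -0.10 to 0.16 for KLK3, -0.27 to 0.17 for MKI67, -0.00142 to 0.28 for MT-ND6, -0.00277 to 0.16 for the noncoding RNA opposite BTG1, -0.35 to 0.0174 for RP11-74C13.4 and -0.0353 to 0.0399 for AC087645.1. List medians moved by more than the spread in 21 alternative values and by less in 304.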

Other observations

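Further genes had a response that differed between parental cells and the neutral line, and they were chosen after their values were seen. AIDA, an axin-interacting protein opposite BROX, stood at 0.04 in parental cells and 0.91 in the neutral line (difference -0.88, adjusted p = 1.82e-07, edgeR). EMG1, a ribosomal RNA methyltransferase, stood at 0.04 and 0.64 (adjusted p = 2e-04, edgeR), and HEATR1, a factor of ribosomal RNA synthesis, at 0.00328 and 0.60 (adjusted p = 0.00467, edgeR). SKIV2L2, the RNA helicase of the nuclear exosome, lay opposite PPAP2A with a mean of 2144 counts, and stood at -0.20 in parental cells and -0.83 in the neutral line (difference 0.60, adjusted p = 0.000969, edgeR). DLX1, a homeobox factor, stood at -0.23 and -2.84 (difference 2.58, adjusted p = 0.00322, edgeR).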
